A study of Homo sapiens with 4 samples.

Results

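The tissue kallikreins of surface epithelium and their inhibitor SPINK5 were followed across 4 arrays of head and neck squamous cell carcinoma (HNSCC) cells. The 10 genes were chosen by name, KLK5, KLK6, KLK7, KLK8, KLK10, KLK11, KLK12, KLK13, KLK14 and SPINK5, out of 43305 gene names on the array, and are read by 15 probes of 60 bases, all of which are reported. Where a gene has several probes, the one with the highest mean level on these arrays stood for it in the calls. Total RNA of the established HNSCC lines HN4 and HN30 and of their cisplatin-resistant derivatives HN4_CR and HN30_CR was hybridised, 1 one-colour array for each. All cells grew in DMEM with 10% FBS. The resistant lines, called HN4/DDP and HN30/DDP in the study, had been raised by stepwise increases of cisplatin and were kept in 20 µM of the drug, for 48 h according to the sample descriptions, which mention no drug for the parental lines. Acquired resistance and the presence of the drug therefore cannot be told apart. The comparison asks how transcript levels differ between each resistant line and its own parent.

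Kallikreins are secreted serine proteases, made as inactive precursors and encoded side by side in 1 cluster on chromosome 19. In the upper epidermis and the lining of the mouth they form an activation cascade: KLK5, which cleaves after basic residues, activates itself and other members, among them KLK7, which cleaves after aromatic residues, and together they dissolve the contacts between the outermost cells. SPINK5, on chromosome 5, encodes LEKTI, a protein of many Kazal-type domains that is cut into fragments which block KLK5, KLK7 and KLK14. Loss of SPINK5 causes Netherton syndrome, in which unrestrained kallikrein activity thins the skin barrier.

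KLK5, KLK6, KLK7 and KLK8, which are neighbours, gave higher values on both resistant arrays than on the parental ones. Their probes and that of SPINK5 begin with the following bases, shown because all later values of these genes rest on them. The first 30 of the 60 bases are given 5′ to 3′, for the probe that stands for each gene. No base is in capitals, since no motif was searched in them.
KLK5 probe: accaagtggatccaggaaaccatccaggcc
KLK6 probe: gacatacatggaatagcacctgggccacca
KLK7 probe: gacgccgatgacctatgaagtcaaatttga
KLK8 probe: ctataccaacatctgccgctacctggactg
SPINK5 probe: acatttccaccaagtttgagccctcaaaat
The KLK5 probe lies at chr19:51446866-51446925, the KLK6 probe at chr19:51461888-51461947, the KLK7 probe at chr19:51480677-51480736 and the KLK8 probe at chr19:51499316-51499375, each on the minus strand. The SPINK5 probe lies at chr5:147516758-147516817 on the plus strand. These are hg19 positions from the scanner files, and the genes are those named by the array's design. Whether a probe falls in coding sequence or in a UTR was not analysed here.

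The promoters of KLK5, KLK6, KLK7 and SPINK5 are shown because the values of these kallikreins moved one way in both lines and those of SPINK5 did not. Each run is 300 bases, 250 before and 50 from the annotated start, from RefSeq on GRCh38.p14, a later build than that of the probes. Capitals mark matches on either strand to TGACG, the canonical half-site of CREB factors, TGGCG, a non-canonical one, TGACGTCA, the full cAMP response element, which contains the canonical half-site, the AP-1 site TGANTCA, and TATAAA, the TATA box. The windows are chr19:50952989-50953288 for KLK5, chr19:50969542-50969841 for KLK6 and chr19:50984015-50984314 for KLK7, all on the minus strand, and chr5:148063730-148064029 for SPINK5 on the plus strand.
KLK5 promoter: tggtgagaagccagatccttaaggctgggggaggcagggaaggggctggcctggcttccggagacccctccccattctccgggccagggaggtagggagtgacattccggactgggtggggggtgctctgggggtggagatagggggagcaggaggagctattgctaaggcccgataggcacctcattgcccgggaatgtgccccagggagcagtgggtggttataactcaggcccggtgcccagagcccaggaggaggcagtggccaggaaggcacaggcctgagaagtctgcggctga
KLK6 promoter: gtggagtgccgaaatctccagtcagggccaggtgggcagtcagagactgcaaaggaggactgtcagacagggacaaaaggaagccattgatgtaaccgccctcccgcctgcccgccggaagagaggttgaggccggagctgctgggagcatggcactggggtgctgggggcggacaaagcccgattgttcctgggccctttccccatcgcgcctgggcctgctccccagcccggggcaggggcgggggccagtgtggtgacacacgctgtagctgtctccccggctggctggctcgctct
KLK7 promoter: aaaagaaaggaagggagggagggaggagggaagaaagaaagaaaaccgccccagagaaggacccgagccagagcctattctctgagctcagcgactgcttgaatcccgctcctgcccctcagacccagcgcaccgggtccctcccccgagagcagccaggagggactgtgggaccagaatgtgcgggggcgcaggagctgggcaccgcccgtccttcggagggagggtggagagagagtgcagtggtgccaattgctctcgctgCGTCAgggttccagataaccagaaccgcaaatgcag
SPINK5 promoter: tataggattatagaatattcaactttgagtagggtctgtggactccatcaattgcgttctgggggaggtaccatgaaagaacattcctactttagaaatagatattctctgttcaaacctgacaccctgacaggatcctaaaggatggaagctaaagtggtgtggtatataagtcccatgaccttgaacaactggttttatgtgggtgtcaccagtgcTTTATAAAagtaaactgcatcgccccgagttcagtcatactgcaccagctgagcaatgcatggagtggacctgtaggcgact
The KLK5 and KLK6 windows held none of the 5 motifs. The KLK7 window held 1 TGACG, on the opposite strand, at base 15 of the transcript. The same site lies 133 and 235 bases before the other annotated starts of KLK7. The SPINK5 window held a TATAAA that begins 30 bases before the start and overlaps the same motif on the opposite strand, which begins 32 bases before it. RefSeq windows were found for 9 of the 10 genes, all but KLK8, 16 windows in all, since several genes have more than 1 start. TGACG was found in 5 of the 16 windows, of KLK7, KLK11 and KLK12, 3 of them overlapping KLK7 windows with the same site, and in 24.6% of all 35116 promoter windows of this length. TGGCG was found in 3 windows, of KLK10, KLK11 and KLK13, and in 41% of all windows. TATAAA was found in 1 window, that of SPINK5, and in 11.5% of all. No window of these genes held TGACGTCA, present in 1.85% of all promoters, or TGANTCA, present in 7.71%. A match describes the letters in a window and says nothing of whether a factor binds there.

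Every level below is the log2 of the processed signal minus the 75th percentile of its array, so 0 is the 75th percentile, and it compares arrays for 1 probe, never 1 probe with another. The 75th percentile was between 444 and 496 signal units on the 4 arrays, 55.3% to 63.6% of spots were well above background by the scanner software's own call, and no spot was saturated. All arrays shared 1 slide. HN30_CR had the largest share well above background. The error given with a difference is the scanner's SD of the spot signals (scanner SD), which covers the reading of a spot and not the spread between cultures. A call means a log2 difference above 2 in size with the brighter array well above background. Where the dimmer array is not, the fold is written "at least". It is taken against the higher of the probe's own level there and the lowest level called above background on that array. Such a fold is not a strict minimum, since other processing of the same signals gave smaller differences for some genes.

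The squamous identity of the cells was checked first. All 9 squamous markers were well above background on HN4, HN4_CR and HN30, and 8 of 9 on HN30_CR, where KRT6A was not. Of 6 fibroblast markers, COL1A2, COL3A1, DCN and LUM were not well above background on any array. COL1A1 and PDGFRB were well above background on all 4. Of the leukocyte markers, CD3E, a T-cell gene, was well above background on HN30_CR alone. PTPRC, the common leukocyte antigen, was well above background on all 4 arrays. It stood at -2.84 in HN4, -2.94 in HN4_CR, -3.10 in HN30 and -2.94 in HN30_CR. CD14, a co-receptor for bacterial lipopolysaccharide, was well above background on all 4 arrays. Its level went from 1.82 in HN30 to 5.30 in HN30_CR, and from 2.63 to 3.19 in HN4 and HN4_CR. The summed linear level of the 6 fibroblast markers was 0.394 in HN4, 1.03 in HN4_CR, 0.223 in HN30 and 0.771 in HN30_CR, and that of the 3 endothelial markers 0.258, 0.311, 0.215 and 0.278. That of the 9 squamous markers was 246, 262, 249 and 154. The fibroblast and endothelial sums and CD14 were higher on each resistant array than on its parent, though not every marker was. COL1A1 made up most of the fibroblast rise, with differences of 1.73 and 2.43. Among the endothelial markers VWF was higher in HN4_CR, at least 5.37-fold, PECAM1 was lower there, at least 2.05-fold, and CDH5 differed by -0.62 and -0.59. The squamous sum was lower in HN30_CR. Their part in the kallikrein values was not tested. In RNA from a whole culture, fewer cells making a transcript and less transcript per cell cannot be told apart.

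Of the 10 genes, 5 were higher in HN4_CR than in HN4, KLK5, KLK6, KLK7, KLK8 and KLK10, which is 50% against 3.61% of the 26853 genes compared. SPINK5 alone was lower, where 2.2% of genes were, and after normexp correction it was not called. In HN30_CR, 4 were higher than in HN30, KLK5, KLK7, KLK8 and KLK11, which is 40% against 8.37% of 28330 genes. None was lower, where 2.75% of genes were. The split of calls over all genes in HN30_CR moved with the processing: 75.3% were higher in the main setting, 67.1% with a pseudocount of 16 and 60.02% after normexp correction, which also adds an offset of 50. KLK5, KLK7 and KLK8 were higher in both lines. Normexp left 4 higher in HN4_CR (0.961% of all genes) and 2 in HN30_CR (1.97%). Requiring both arrays well above background left 2 in HN4_CR (1.65%) and 2 in HN30_CR (4.46%). In each line 9 of the 10 genes were well above background on at least 1 array of the pair and could be called. The median difference over all 10 was 1.98 in HN4_CR and 1.39 in HN30_CR, beside -0.08 and 0.06 over all genes compared. Some of these genes could be compared only because the resistant array was bright. The 10 genes were also chosen with earlier results of these data known. Their count and median are therefore a description.

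**Figure D1:**
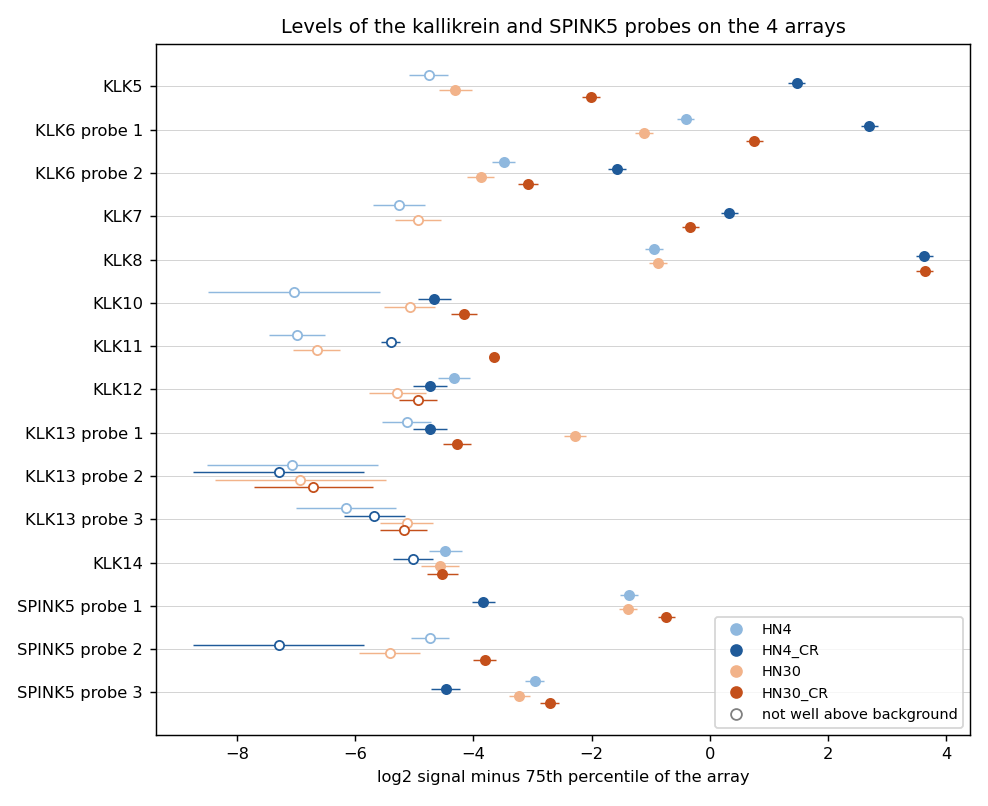
Levels of the 15 kallikrein and SPINK5 probes (log2 signal minus the 75th percentile of the array) on the arrays of HN4, HN4_CR, HN30 and HN30_CR, with bars for the scanner SD and open circles where the probe was not well above background. KLK8 stood at -0.95 and -0.88 in the parental lines and at 3.63 and 3.64 in the resistant ones.

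KLK5 starts the cascade. It stood at -4.76 in HN4, where it was not well above background, at 1.47 in HN4_CR, at -4.31 in HN30 and at -2.01 in HN30_CR. The resistant arrays were both above both parental arrays, and HN4_CR was the brightest by far. The difference was 6.22 (scanner SD 0.36), at least 74.7-fold, in HN4_CR and 2.30 (scanner SD 0.32), 4.91-fold, in HN30_CR. The HN4 level lay just above the lowest level called above background on that array, so 74.7 is the plain ratio of the signals. With a pseudocount of 16 the HN4_CR difference was 5.33, and after normexp correction 4.14. The HN30_CR call was narrow: the difference was 1.98 after quantile normalization, 1.96 in the deposited table, 1.71 with a pseudocount of 16 and 0.96 after normexp correction, all under the threshold. KLK5 was 11.1-fold lower in HN30_CR than in HN4_CR. The parental levels differed by 0.45, close to the scanner SD of 0.43.

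KLK7, the chymotrypsin-like enzyme that KLK5 activates, was not well above background in either parental line, at -5.26 in HN4 and -4.93 in HN30. It stood at 0.33 in HN4_CR and -0.33 in HN30_CR. Both resistant arrays lay far above both parental ones. The difference was 5.59 (scanner SD 0.46), at least 34.1-fold, in HN4_CR and 4.60 (scanner SD 0.42), at least 19.6-fold, in HN30_CR. After normexp correction the differences were 3.17 and 2.41. KLK7 was 1.58-fold lower in HN30_CR than in HN4_CR.

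KLK14, a trypsin-like enzyme that also feeds the cascade, stayed low. Its level was -4.47 in HN4, -5.02 in HN4_CR, where it was not well above background, -4.56 in HN30 and -4.52 in HN30_CR. The differences were -0.55 (scanner SD 0.44) and 0.04 (scanner SD 0.41; down to -0.37 in the deposited table), so neither passed the threshold, and the HN30 pair differed by less than its scanner SD.

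KLK8, also called neuropsin, a trypsin-like enzyme of skin and brain, gave the most even pattern. It was well above background on every array, at -0.95 in HN4, 3.63 in HN4_CR, -0.88 in HN30 and 3.64 in HN30_CR. The parental arrays differed by 0.07 and the resistant ones by 0.01, both less than the scanner SD of 0.21 and 0.20. The difference was 4.57 (scanner SD 0.21), 23.8-fold, in HN4_CR and 4.52 (scanner SD 0.21), 22.9-fold, in HN30_CR. Counted from the top, KLK8 held rank 34 of the 23469 genes measured on both HN4 arrays and rank 57 of the 23245 measured on both HN30 arrays.

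KLK6, a trypsin-like enzyme found in many epithelia and in the nervous system, has a pair of probes. The one standing for the gene was at -0.41 in HN4, 2.70 in HN4_CR, -1.11 in HN30 and 0.76 in HN30_CR. The difference was 3.11 (scanner SD 0.20), 8.62-fold, in HN4_CR and 1.87 (scanner SD 0.21), 3.66-fold, in HN30_CR, where it lay just under the threshold. The other probe, at chr19:51466725-51466784, was at -3.49, -1.57, -3.87 and -3.08 on the same arrays. Its differences were smaller, 1.92 (scanner SD 0.24) and 0.79 (scanner SD 0.28), and neither passed. Both probes were higher on each resistant array than on its parent, with the larger difference in HN4_CR.

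**Figure D2:**
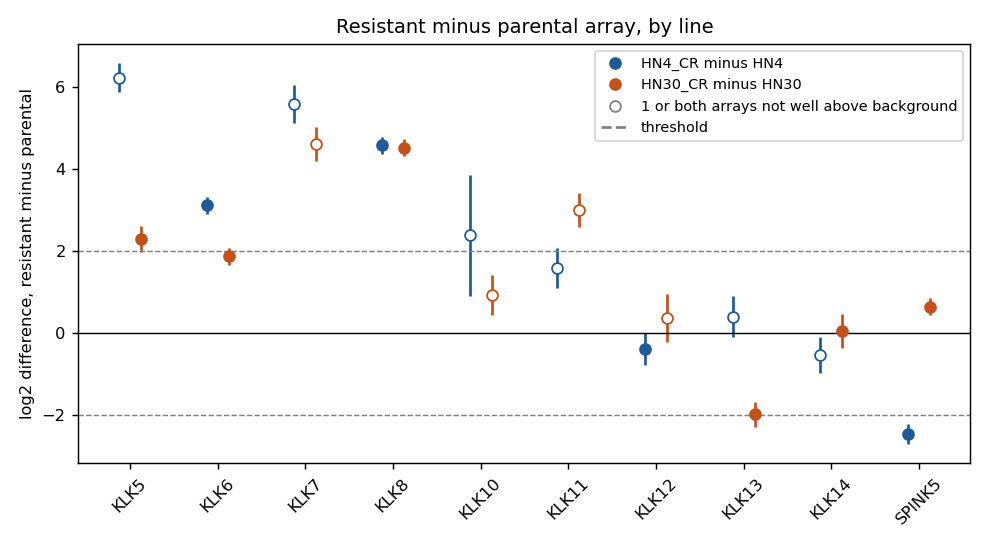
Log2 difference between the resistant and the parental array for the 10 genes in each line, with bars for the scanner SD and dashed lines at the threshold of 2. KLK8 differed by 4.57 in HN4_CR and 4.52 in HN30_CR, while KLK5 differed by 6.22 and 2.30 and SPINK5 by -2.46 and 0.64.

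The remaining kallikreins were not well above background on at least 1 array each. KLK10, a family member known for weak protease activity, was not well above background in HN4 (-7.04) or HN30 (-5.07) and stood at -4.66 in HN4_CR and -4.16 in HN30_CR. Its difference of 2.38 in HN4_CR passed the threshold with a scanner SD of 1.48, and was at least 1.08-fold. In HN30_CR the difference was 0.91 (scanner SD 0.49), at least 1.38-fold. After normexp correction the HN4_CR difference was 0.31 and the call was lost. The call thus rests on a parental value below the range the array could measure.

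KLK11, another trypsin-like enzyme of epithelium, has 1 probe printed on 10 spots, which shows the error of the measurement directly. Its mean level was -6.98 in HN4, -5.40 in HN4_CR, -6.65 in HN30 and -3.66 in HN30_CR. The SD between spots was 0.15, 0.65, 0.40 and 0.20 on these arrays. None of the 9 spots kept in HN4 was well above background, 2 of 10 were in HN4_CR, 0 of 10 in HN30 and 10 of 10 in HN30_CR. The gene was measured in HN30_CR alone, where the difference was 2.99 (scanner SD 0.41), at least 1.96-fold. With a pseudocount of 16 it was 1.29, and after normexp correction 0.47, so the call was lost.

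KLK12, a trypsin-like enzyme, was at -4.33 in HN4, -4.73 in HN4_CR, -5.28 in HN30 and -4.93 in HN30_CR, and was not well above background in the HN30 pair. Its difference in HN4_CR was -0.40 (scanner SD 0.39). KLK13, an enzyme of stratified epithelium, was the exception among the parental lines. Its main probe was not well above background in HN4 (-5.13), and stood at -4.73 in HN4_CR, -2.28 in HN30 and -4.27 in HN30_CR. Its difference in HN4_CR was 0.40, less than the scanner SD of 0.51. HN30 was the high array, at least 5.59-fold above HN4. In HN30_CR the difference was -1.99 (scanner SD 0.30), 3.98-fold lower, just under the threshold. It was -2.43 after quantile normalization, past it, -1.50 with a pseudocount of 16, -0.93 after normexp correction and -0.61 as the mean of its probes. The 2 other KLK13 probes were not well above background on any array.

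SPINK5 moved differently in each line. Its main probe, designed on NM_006846, was at -1.37 in HN4, -3.83 in HN4_CR, -1.38 in HN30 and -0.74 in HN30_CR. The parental arrays were alike within 0.01 (scanner SD 0.21), and HN4_CR was the low array. The difference was -2.46 (scanner SD 0.25), 5.51-fold lower, in HN4_CR and 0.64 (scanner SD 0.21), 1.56-fold higher, in HN30_CR. After normexp correction the HN4_CR difference was -1.37, under the threshold. SPINK5 was 8.51-fold higher in HN30_CR than in HN4_CR.

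A further pair of SPINK5 probes was designed on other transcripts, and which transcripts each of them reads was not analysed here. The probe on NM_001127698, at chr5:147510878-147510937, was at -2.96 in HN4, -4.47 in HN4_CR, -3.22 in HN30 and -2.71 in HN30_CR. Its differences were -1.50 (scanner SD 0.30) and 0.51 (scanner SD 0.24), with the signs of the main probe and neither past the threshold. The probe on NM_001127699, at chr5:147504419-147504478, was well above background in HN30_CR alone, at -3.81, at least 1.76-fold above HN30. HN4_CR was the lowest array and HN30_CR the highest for all 3 probes, although the third was not well above background on the other arrays.

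**Figure D3:**
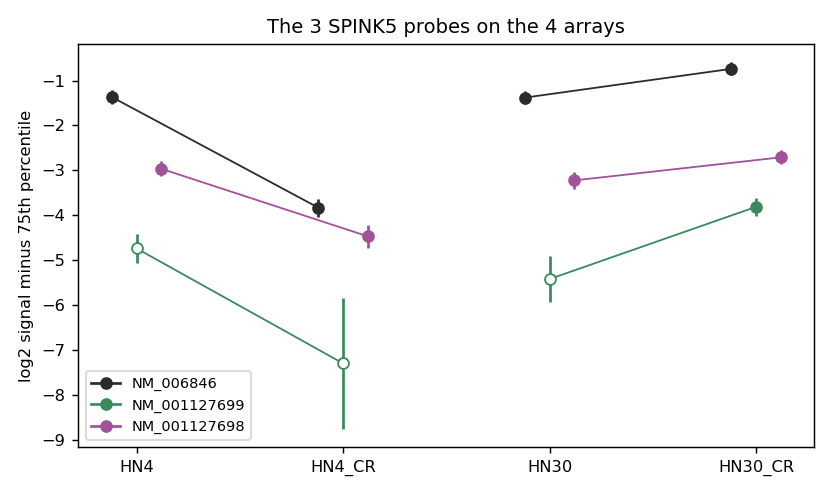
Levels of the 3 SPINK5 probes (log2 signal minus the 75th percentile) on the 4 arrays, named by the transcript each was designed on, with bars for the scanner SD, lines joining each parental array to its resistant one and open circles where the probe was not well above background. The probe on NM_006846 went from -1.37 to -3.83 in the HN4 pair and from -1.38 to -0.74 in the HN30 pair.

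The lines were set against each other on the size of their differences. The HN30 difference minus the HN4 difference was -3.93 (scanner SD 0.48) for KLK5, -1.24 (scanner SD 0.29) for KLK6, -0.99 (scanner SD 0.62) for KLK7, -0.06 (scanner SD 0.29) for KLK8 and 3.10 (scanner SD 0.32) for SPINK5. KLK6 thus differed more in the HN4 pair, and the KLK8 differences lay within their scanner SD of each other. The values for KLK5 and KLK7 rest on parental levels not well above background, of HN4 for KLK5 and of both lines for KLK7, so their size is not exact. With 1 array for each condition, a difference between the lines was not tested. Between the parental lines 1 of the 10 genes passed the threshold, KLK13 higher in HN30, where 0.904% of 25889 genes were, and none was lower, where 1.9% were. Between the resistant lines 1 was higher in HN30_CR, SPINK5, where 5.68% of 28729 genes were, and 1 lower, KLK5, where 2.63% were. These comparisons share arrays with those of resistant and parental cells.

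The pair of lines gives the only replicated contrast. By limma, with the line as a block and 1 residual degree of freedom per gene, 0% of 29521 genes had an adjusted p under 0.05, 2537 had an unadjusted p under 0.05, and the smallest adjusted p was 0.382. KLK7 had a mean log2 difference of 5.09 (SE 0.41) and KLK8 of 4.54 (SE 0.40), both with a limma adjusted p of 0.382. KLK5 had 4.26 (SE 0.99, limma adjusted p = 0.485), KLK6 had 2.49 (SE 0.49, limma adjusted p = 0.461) and SPINK5 had -0.91 (SE 0.81, limma adjusted p = 0.805). The KLK7 fit used dim signals from both HN4 and HN30, and the KLK5 fit a dim signal from HN4. The means and SEs of KLK5 and KLK7 are therefore not exact, unlike those of KLK8, which was bright on every array. After normexp correction the KLK7 differences were 3.17 in HN4_CR and 2.41 in HN30_CR. KLK5, KLK6, KLK7 and KLK8 had positive differences in 2 of 2 lines, with KLK6 under the threshold in HN30_CR, and none of the 10 genes passed the correction.

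KLK5, KLK7 and KLK8, called in both lines, lie close together with KLK6, which was called in HN4_CR alone. The KLK5, KLK6, KLK7 and KLK8 probes are neighbours among the kallikreins and span 52.45 kb of the 258.806 kb between the KLK1 and KLK14 probes. KLK9, between KLK8 and KLK10, was well above background on all arrays, and its differences were 0.70 (scanner SD 0.30) in HN4_CR and 0.88 (scanner SD 0.26) in HN30_CR. KLK12, KLK13 and KLK14, on the far side of KLK11, did not pass upward in either line. On the side of KLK5, KLK4 and KLK15, and the prostate kallikrein KLK3, were not well above background on any array. KLK2 differed by -0.39 and 0.65 on its main probe, and its other probe was well above background in HN30_CR alone. KLK1, the kinin-releasing enzyme at the end of the cluster, was the exception: it stood at -4.61 in HN4, -5.80 in HN4_CR, -5.05 in HN30 and 0.52 in HN30_CR, at least 35.4-fold higher in HN30_CR than in HN30. The other measured genes within 100 kb of the cluster had differences from -1.53 to 0.69 in HN4_CR and from -1.40 to 0.48 in HN30_CR, none past the threshold. Copy number was not measured.

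**Figure D4:**
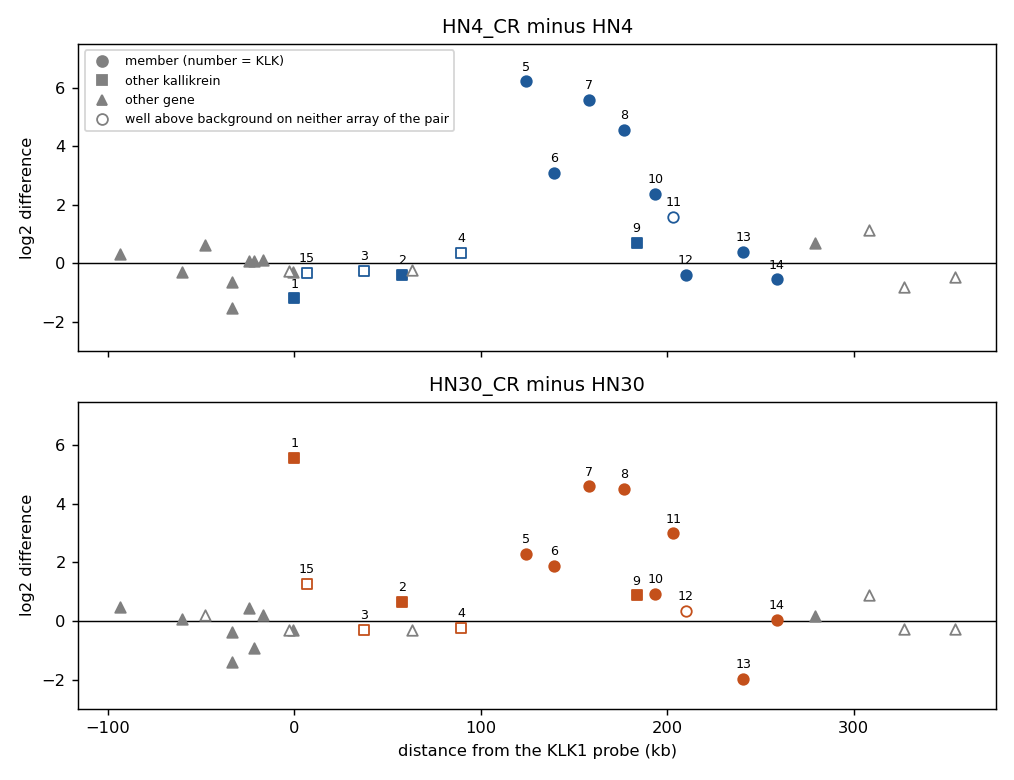
Log2 difference between resistant and parental array against distance from the KLK1 probe (kb) for genes within 100 kb of the kallikrein probes, HN4_CR above and HN30_CR below, with circles for the 9 member kallikreins, squares for other kallikreins, triangles for other genes and open symbols where neither array was well above background. The values of KLK5, KLK6, KLK7 and KLK8 run together from 1.87 to 6.22, and KLK1 stands at 5.57 in HN30_CR alone.

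Genes that work with the kallikreins were counted over whole lists, to be read beside the 3.61% of all genes higher and 2.2% lower in HN4_CR and the 8.37% higher and 2.75% lower in HN30_CR. Of 9 other SPINK inhibitors, 4 could be compared in each line. SPINK2 was higher in both, by 2.56 in HN4_CR and 2.91 in HN30_CR. SPINK8 was higher in HN4_CR, at least 18.4-fold, and SPINK1, the pancreatic trypsin inhibitor, was higher in HN30_CR by 2.98 and differed by -1.53 in HN4_CR. Of 9 other surface inhibitors, PI3, the elastase inhibitor elafin, was higher in HN4_CR by 2.98 and lower in HN30_CR, with a difference of -2.59. A2ML1 was higher in HN4_CR, at least 1.32-fold, and SERPINA5 in HN30_CR by 2.04. The A2ML1 difference of 2.68 had a scanner SD of 1.47, with HN4 not well above background. SPINT1 and SPINT2, which restrain membrane proteases, did not pass in either line.

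Of 11 activating and membrane proteases none passed in HN4_CR among the 6 compared, where 3.61% of all genes were higher and 2.2% lower. In HN30_CR 2 of 7 were higher, where 8.37% of all genes were. These were TMPRSS4 by 4.92 and HPN, hepsin, at least 9.35-fold. ST14, matriptase, an activator of kallikrein precursors, differed by -0.30 and -0.20. Of 9 substrates and receptors, CAMP, the precursor of the antimicrobial peptide LL-37, which KLK5 and KLK7 cut, was higher in both lines, at least 1.46-fold and at least 3.03-fold. The corneodesmosome genes CDSN and DSG1 did not pass, and DSC1 was not well above background on any array. F2RL1, the receptor PAR2 that kallikreins cleave, differed by 0.61 and -0.17.

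Of 11 terminal differentiation genes of the epidermis 8 could be compared in each line, 2 were higher in HN4_CR, and 1 was higher and 1 lower in HN30_CR, beside 3.61%, 8.37% and 2.75% of all genes. SPRR1B was higher in HN4_CR by 4.87 and lower in HN30_CR, at least 4.38-fold. SPRR3 was higher in HN4_CR, at least 18.0-fold, and SBSN in HN30_CR by 2.44. IVL, involucrin of the cornified envelope, differed by 1.35 and 1.62, under the threshold in both lines. KRT1, LOR and TGM3 were not well above background on any array. The median difference of the genes compared was 0.70 in HN4_CR and 0.31 in HN30_CR, beside -0.08 and 0.06 over all genes compared. Among the squamous markers, KRT14, KRT6A, KRT16 and KRT17 were higher in HN4_CR and KRT5 lower, with a difference of -4.05, while in HN30_CR KRT6A was lower, at least 183-fold, and no other passed.

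The genes most like KLK8 were sought among 22148 genes well above background on all 4 arrays, by the distance between their 4 levels, each centred on its own mean. KLK8 was the reference because it had the widest range among the members measured on every array. The nearest were TMEM63C at a distance of 0.62, LOC101928092 at 0.64, LOC100289026 at 0.66, RRAD at 0.68 and AKR1B15 at 0.71 log2 units. TMEM63C was higher by 4.59 in HN4_CR and 4.82 in HN30_CR. KLK6 was at rank 202 with 2.54, and SPINK5 at rank 21321 with 5.87. The other 7 members were dim on at least 1 array and were not ranked.

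**Figure D5:**
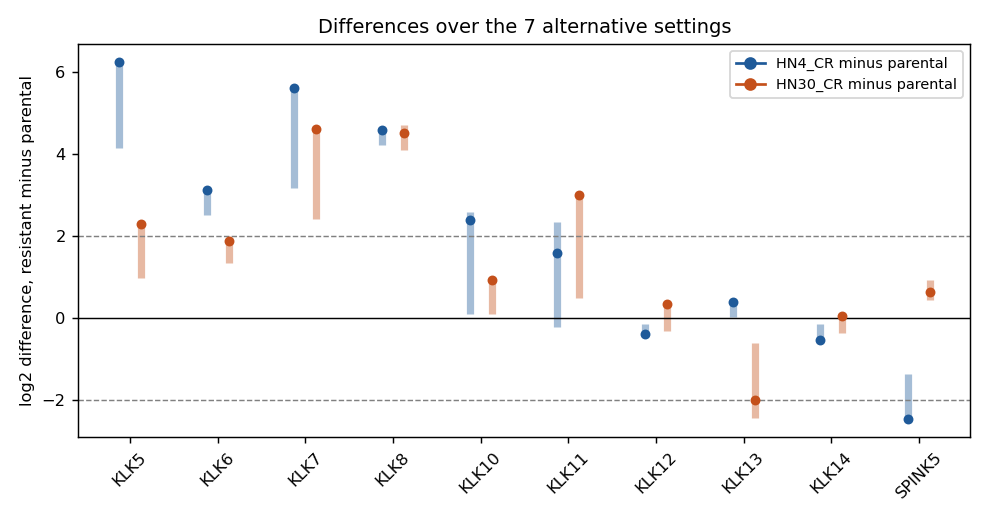
Log2 difference between resistant and parental array for the 10 genes (dots, as reported) with bars over 7 other ways of processing the same signals, and dashed lines at the threshold of 2. KLK7 and KLK8 stayed above 2 in both lines, with KLK8 between 4.10 and 4.71, while KLK10 in HN4_CR ran down to 0.11 and KLK11 in HN30_CR to 0.47.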

How the data were processed

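RNA from 4 cell lines was measured on Agilent SurePrint G3 Human Gene Expression arrays by a company on behalf of the authors. The authors deposited scanner output, holding a processed intensity per spot from Feature Extraction 10.7.1.1, with probes placed on hg19, and a table of log2 values whose scale and centring steps are not given in the sources used here. From the intensity, outlier spots were left out, spots of 1 probe were averaged and log2 values were taken relative to the array's 75th percentile. Of a gene's probes the one with the highest mean level stood for it. Folds were taken only where a probe was well above background on the brighter array. The contrast over both lines used limma 3.58.1 in R 4.3.3 with Benjamini-Hochberg adjustment. Counting and limma were tested on simulated data. The genes named outside the members were those of fixed lists past the threshold or absent, and the 5 nearest to KLK8. KLK2, KLK9, IVL, ST14, SPINT1, SPINT2, CDSN, DSG1, F2RL1, PDGFRB, PTPRC, CD3E and CDH5 were added after their values were seen. Members and lists were chosen with earlier results of these data known. The precision is limited by 1 array per condition. Proteins were not compared here, and 1 marker gene of the lists is not reported here.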

Additional observations from a re-analysis of the deposited data

Results flagged for a closer look

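Of the 8 members that could be compared in both pairs, 3 had differences of opposite sign in the 2 lines as processed here, and for SPINK5 alone both differences were larger than their scanner SD. SPINK5 differed by -2.46 (scanner SD 0.25) in HN4_CR and 0.64 (scanner SD 0.21) in HN30_CR. KLK13 differed by 0.40 (scanner SD 0.51) and -1.99 (scanner SD 0.30), with HN4 not well above background. KLK14 differed by -0.55 (scanner SD 0.44) and 0.041 (scanner SD 0.41), with HN4_CR not well above background, and its HN30_CR difference was negative under 5 of 7 alternatives, down to -0.37. KLK12 also differed in sign, by -0.40 and 0.35, but was not well above background on either HN30 array. With 1 array per condition, these differences between lines were not tested.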

How the results depend on the processing

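Of 140 differences recomputed under 7 alternatives, 103 moved by less than the scanner SD, 37 by more, and no called difference changed sign. Of 36 member counts under 9 alternatives, 27 lay within 1.5 times the reported count. Requiring both arrays well above background left 2 higher in HN4_CR (KLK6, KLK8; 1.65% of all genes) and 2 in HN30_CR (KLK5, KLK8; 4.46%), since the parental array was dim for KLK5, KLK7 and KLK10 in HN4 and for KLK7 and KLK11 in HN30. Normexp left 2 higher in HN30_CR (KLK7, KLK8; 1.97% of all genes) and 0 lower in HN4_CR (0.652%), where SPINK5 differed by -1.37. A pseudocount of 16 left 2 higher in HN30_CR (3.83%). Normexp and the pseudocount each left 4 higher in HN4_CR, without KLK10, where 0.961% and 1.82% of all genes were higher. With quantile normalization, centring on the median, the deposited table or a threshold of 1, KLK13 made 1 lower in HN30_CR, where 2.93%, 3.25%, 2.98% and 13.3% of all genes were lower. A threshold of 1 gave 5 higher in HN30_CR, where 19.8% of all genes were. Centring on the median of probes well above background moved the median of all genes in HN30_CR by -0.11, and the deposited table by -0.12. For all genes, the main setting called 970 higher and 590 lower in HN4_CR and 2371 higher and 779 lower in HN30_CR. Normexp called 258, 175, 557 and 371 and the pseudocount 488, 305, 1085 and 531. The limma count stayed at 0 without the line block (3261 genes at an unadjusted p under 0.05) and for genes well above background on all arrays (1957). The line block is the only pairing the labels allow. Low signal limits KLK10, KLK11, KLK12, KLK13 and KLK14.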
